A study of Mus musculus with 4 samples.

Results

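The cytosolic ribosomal protein genes were the 84 genes, of 55536 annotated, whose symbols follow the Rpl or Rps naming scheme or are Rpsa, Rplp0, Rplp1 or Rplp2, and which have at least 1 transcript annotated as protein_coding. Names of the pseudogene form (-ps) and the Rps6k kinases were left out, and so were 6 further names without a coding transcript. Of the 84, 52 belong to the large and 32 to the small subunit, and they have 501 annotated transcripts. They were measured in 4 libraries of total RNA depleted of ribosomal RNA, made from the cytosol of C57BL/6J mouse macrophages, phagocytes grown in culture from precursors in bone marrow. All 4 libraries had the same treatment: lipid A (the Toll-like receptor 4 agonist within bacterial lipopolysaccharide) at 100 ng/ml for 12 hours, a washout of 12 hours, and lipid A at 100 ng/ml again for 15 minutes. No untreated sample was analysed here, so nothing below is a response to lipid A. The labels number the libraries as biological replicates 1 to 4 and name 1 donor record for all 4. They do not say whether the cultures were separate, so the p-values measure only how far these 4 samples differ, a spread that may be technical. Sex and age were not recorded.

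The cytosolic ribosome has a small subunit, which decodes the mRNA, and a large subunit, which forms the peptide bond. Each ribosomal protein enters the particle once, apart from the acidic stalk proteins Rplp1 and Rplp2, which enter in several copies on Rplp0. Mammalian ribosomal protein mRNAs are short, abundant and stable, and most begin with a terminal oligopyrimidine (TOP) tract, a run of C and T at the cap through which mTORC1 and the RNA-binding protein Larp1 control their translation. Ribosomal protein genes have also given rise to many processed pseudogenes, intronless copies of their mRNAs pasted elsewhere in the genome. Reads from a gene and from such a copy can be identical, which bears on every count below.

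Each library came with 2 quantifications. The first was derived from an alignment to the transcriptome and the second directly from the reads, per the deposited notes. Values are TPM (transcript abundance, corrected for length and for library size) of the first quantification unless stated. Total expected counts per library were 30660511 to 48223718. RNA without coding capacity set much of the TPM scale: protein-coding genes held 31.7%, 25.3%, 30% and 36.6% of all TPM in replicates 1 to 4, and the nuclear 7SK RNA (Rn7sk) alone stood at 18199, 34344, 62955 and 23958 TPM. Rescaling TPM to protein-coding genes raised log2 values by 1.71 on average. Malat1, a nuclear RNA that should be scarce in a cytosolic fraction, was at 55.7 TPM in replicate 1 and at 295 to 719 TPM in the other replicates. All 10 macrophage markers examined lay above 1 TPM, summing to 7209 to 9750 TPM. The summed levels of the markers were 8.78 to 18.1 TPM for T and NK cells, 1.07 to 1.85 for B cells, 7.50 to 15.1 for neutrophils and 0.73 to 2.12 for fibroblasts and endothelium. Those of erythroid cells and megakaryocytes summed to 70.7 to 147 TPM, nearly all of it from Pf4. Likewise, Cd4 gave nearly all of the T and NK cell sum, and S100a8 and S100a9 nearly all of the neutrophil sum.

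The sequences shown first are the annotated starts of transcripts, because the pyrimidine tract is the feature that the family is known for. Each line gives up to 5 bases before the longest C and T run that begins within the first 60 bases of the leading coding transcript, with the run in capitals, 24 bases in all, 5′ to 3′, from the GENCODE M21 transcripts on mm10. Rpl32 and Rplp1 are shown as runs at or next to the start, Rpl41 and Rps24 as highly expressed members whose run lies further in, Rps29 as a highly expressed member with no long run, and Rpl5 and Rps3 as members of low level.
Rpl32: CTTCCTTCTTCCTCggcgctgcct
Rplp1: gaTCTTTTCCTCagctgccgccaa
Rpl41: gtaggCCTCCCTCTCCgccctctc
Rps24: agcggTCCTCTTTTCCTCCTCTCC
Rps29: tcacgTCTTagcgttgtattctgg
Rpl5: agccaCTCTTTCTCacgtcgcttg
Rps3: aTTTCCCatgaacacttgcaaggg
These stretches lie at chr6:115808724-115808747 on the minus strand (Rpl32), chr9:61914519-61914542 on the minus strand (Rplp1), chr10:128549110-128549133 on the minus strand (Rpl41), chr14:24490711-24490734 on the plus strand (Rps24), chr12:69159143-69159166 on the minus strand (Rps29), chr5:107900503-107900526 on the plus strand (Rpl5) and chr7:99483715-99483738 on the minus strand (Rps3). All are in the first exon.

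Of the 81 members of at least 1 TPM, 47 (58.0%) had a run of at least 8 pyrimidines beginning in the first 60 bases, against 1778 (20.0%) of 8881 protein-coding genes of at least 1 TPM, members included. The run was up to 21 bases long among members, in Rpl7a, and its median was 9.0 bases against 5.0 over all genes. A stricter form was tried first, a run of at least 5 pyrimidines that opens the annotated transcript with a C. It was met by 10 members (12.3%) and by 210 genes in all (2.4%), and the 60-base window was chosen after this had been seen. With a window of 30 bases the counts were 27 members (33.3%) and 971 genes (10.9%). Annotated starts need not be the cap sites used in these cells, and no cap site was measured. Over 81 members the length of the run and the TPM had a Spearman rho of 0.11, a description over genes that share their libraries.

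Promoters from 250 bases before to 50 after the start (RefSeq, GRCm38.p6) were found for 64 of the 84 members. Both strands were searched for 5 motifs, and the share among 27025 genes with a promoter in the same table is given beside each. Those 27025 genes were not filtered by expression, unlike the genes in the comparison of transcript starts. The ETS core CCGGAAG was in 26 members (40.6%, against 9.9%) and the YY1 core AAGATGG in 10 (15.6%, against 7.3%). The SP1 box GGGCGG was in 40 (62.5%, against 38.2%) and the CRE palindrome TGACGTCA in 5 (7.8%, against 2.0%). The TATA box TATAAA was in 7 (10.9%, against 15.7%). These matches describe the letters in the window and no binding was measured.

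Nearly all of the members were expressed. The filter asked for 10 or more expected counts summed over the 4 libraries. It was passed by 82 members and not by Rpl3l and Rpl10l. Against a level of 1 TPM, 81 of the 82 (98.8%) lay above (limma on log2(TPM + 0.1), one-sided, adjusted p below 0.05 over all genes), where 58.2% of the 16262 genes tested did. In the second quantification 80 members lay above, and Rpl12 was not called there (log2 0.51, adjusted p = 0.0596). The remaining tested member, Rpl39l, lay below, as did 35.1% of all genes, but with TPM rescaled to protein-coding genes it stood 0.21 log2 units above 1 TPM and was not called. The median member was 7.36 log2 units above 1 TPM, against 1.32 for the median gene tested. Together the 84 members held 1.56%, 1.61%, 1.31% and 1.30% of the expected counts on protein-coding genes in replicates 1 to 4, and 5.82%, 6.03%, 5.12% and 4.90% of their TPM. The larger share of TPM goes with short transcripts: the 81 members of at least 10 TPM had a median length of 695 bases, against 2214 for the 4213 protein-coding genes of that level.

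The 81 members of at least 10 TPM spanned 41.8-fold, from 19.2 TPM (Rpl5) to 805 TPM (Rpl41), and 61 of them (75.3%) lay within 2-fold of the median member. The middle of the distribution, from the first to the third quartile, ran from 122 to 250 TPM. Median levels of the 32 small subunit members were 227, 185, 181 and 218 TPM in replicates 1 to 4, and those of the 49 large subunit members 177, 149, 151 and 181 TPM. The small subunit median was the higher in each library. Median transcript length was 640 bases in these small and 740 in these large subunit members, and the part of length in the difference was not tested. The order of the members hardly differed between libraries, with a Spearman rho over the 81 genes of 0.974 to 0.987 in the 6 pairs of libraries.

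**Figure D1:**
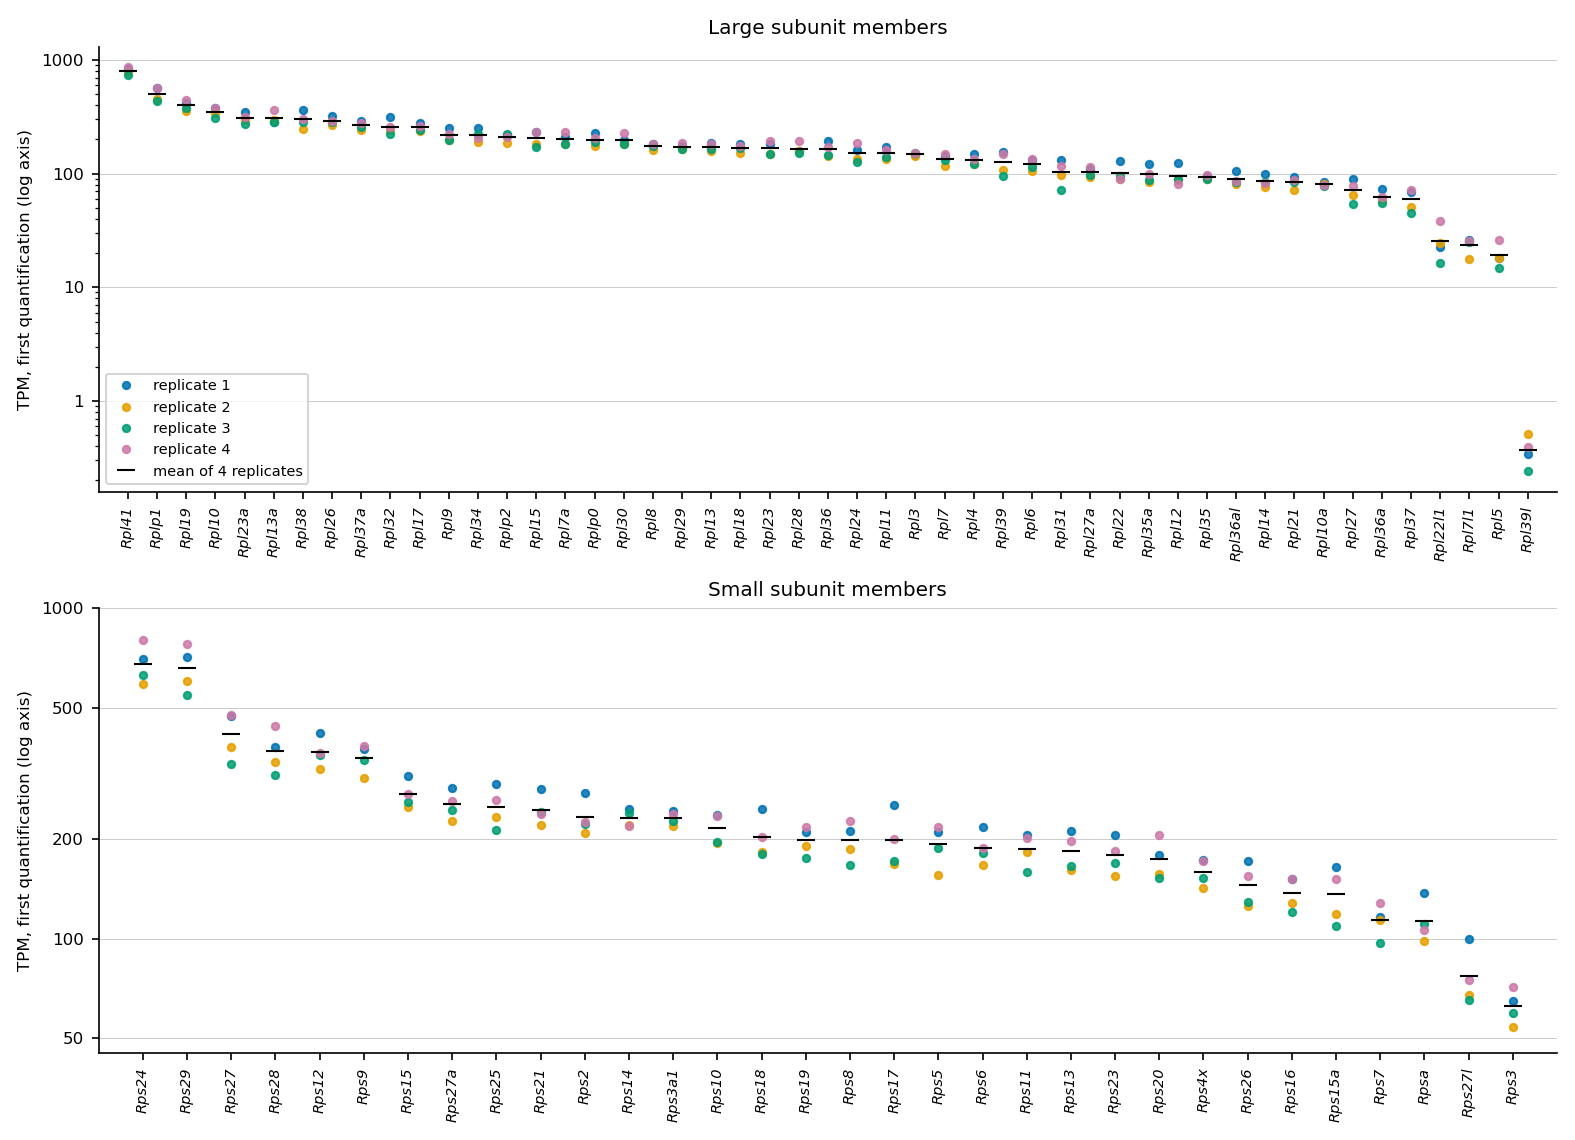
TPM of the members on a log axis, large subunit above and small subunit below, ordered by the mean of 4 replicates (black bar), with 1 point per replicate. Rpl41, Rps24, Rps29 and Rplp1 lead, and Rpl22l1, Rpl7l1, Rpl5 and Rpl39l (0.37 TPM) stand below the others. Rpl3l and Rpl10l, at or near 0, are not drawn.

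The level of all members together was not the same in each library. On the deposited scale 50 of the 81 were highest in replicate 1 and 30 in replicate 4, and 44 were lowest in replicate 2 and 33 in replicate 3. After TPM were rescaled to protein-coding genes the order changed, with 43 highest in replicate 2 and 54 lowest in replicate 4. Replicates 2 and 3 were the libraries with the highest Rn7sk and Malat1, and the part of these RNAs in the members' TPM was not tested. In bulk libraries, fewer cells of a type and less RNA per cell cannot be told apart. Distances from the median member, used next, are not touched by such a common scale.

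The next comparison asked which mRNAs stand more than 2-fold from the typical member. Log2(TPM + 0.1) was centred on the median member of the same library and tested with limma treat over all genes. The test called 4 members above (4.88% of 82, where 0.461% of all genes tested were) and 9 below (11.0%, where 95.9% of all genes were). The median gene tested stood at -6.04 log2 units from the median member. 

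The 4 members above were 2 of the large and 2 of the small subunit. Rpl41 (chr10:128548114-128549305, minus strand), which encodes a very short basic peptide at the subunit interface, was at 824, 790, 742 and 862 TPM in replicates 1 to 4, 4.45-fold above the median member (log2 2.15 ± 0.13 SE, limma treat adjusted p = 1.26e-05). Its lowest library exceeded the highest library of every other member apart from Rps24 and Rps29. Rps24 (chr14:24487125-24496959, plus strand), needed for pre-ribosomal RNA processing, was at 700, 589, 628 and 803 TPM (log2 1.90 ± 0.12, adjusted p = 4.85e-05). Rps29 (chr12:69157722-69159186, minus strand), a small zinc-finger protein of the small subunit head, was at 714, 604, 548 and 781 TPM (log2 1.86 ± 0.12, adjusted p = 7.19e-05). The ranges of Rps24 and Rps29 overlap almost completely, and their order is within the spread. Rplp1 (chr9:61913284-61914542, minus strand), 1 of the 2 acidic stalk proteins that recruit elongation factors, was at 569, 449, 436 and 562 TPM (log2 1.47 ± 0.11, adjusted p = 1.62e-03).

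The other stalk genes were lower. Rplp2 was at 217, 185, 222 and 210 TPM, and Rplp0, the base of the stalk, at 227, 176, 189 and 205 TPM. Those ranges overlap each other, and both lie below all 4 libraries of Rplp1. Rps27, at 472, 379, 338 and 475 TPM, was the member nearest to a call above (log2 1.19, adjusted p = 0.0668). Rpl19 (397 ± 39.4 TPM, SD, n = 4), Rps28 (369 ± 54.8) and Rps12 (367 ± 38.4) completed the 8 highest and were not called. Rps6, the phosphorylation target of the S6 kinases, sat at the middle of the family, at 217, 167, 182 and 189 TPM. Rps27a, which is made as a fusion with ubiquitin, stood at 287, 227, 245 and 260 TPM, and Rpsa, the laminin-receptor precursor, at 138, 98.4, 111 and 106 TPM. None of these 3 was called in either direction.

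Of the 9 members below, 4 are genes named as paralogs ("like") of another member. The lowest was Rpl39l (chr16:10170226-10174911), the male germline paralog of Rpl39, at 0.34, 0.51, 0.24 and 0.39 TPM from 8 to 21 expected counts a library (log2 -8.62 ± 0.20 from the median member, limma treat adjusted p = 7.62e-10). Rpl7l1 (log2 -2.95) and Rpl22l1 (log2 -2.88) followed, and Rps27l was just past the threshold (log2 -1.25, adjusted p = 0.0160). The call of Rps27l was lost without replicate 3 (adjusted p = 0.0670), without replicate 4 (0.0541) and in the second quantification (0.127).

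Of the 5 others, Rpl5 stood lowest. Rpl5 (chr5:107900502-107909005, plus strand) binds 5S ribosomal RNA with Rpl11 and, when free, the p53 ligase Mdm2. It was at 18.1, 18.2, 14.7 and 25.9 TPM, 9.55-fold below the median member (log2 -3.26 ± 0.12, adjusted p = 5.54e-08). Rpl37 was at 68.6, 51.2, 45.2 and 71.8 TPM (log2 -1.63), Rpl36a at 73.6, 58.3, 54.6 and 62.8 TPM (log2 -1.54), Rps3 at 64.6, 54.1, 59.5 and 71.2 TPM (log2 -1.54) and Rpl27 at 90.3, 65.3, 53.8 and 77.2 TPM (log2 -1.36). Rps3, a protein of the mRNA entry channel that also has a role in DNA repair, was the lowest member of the small subunit by TPM. By counts Rps3 was not low, with 6693 expected counts on average, against a median of 5588 for the 81 members of at least 10 TPM. Its mean transcript length was 1896 bases, against a median of 695 for those members. The part of length in its low TPM was not tested. Rpl11, the partner of Rpl5 in the 5S particle, was at 172, 135, 139 and 162 TPM, and each of its libraries lay above all 4 of Rpl5. This contrast leaves out other genes that share sequence with either. With its 3 such genes, taken up next, Rpl5 summed to 114 TPM on average, against 152 TPM for Rpl11 alone.

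For 3 of these genes the call depended on whether the TPM of copies were added. Of all other genes, 425 shared at least 25% of the 31-base words of a member's leading transcript, and 74 members had at least 1 such gene, here called a copy. The term goes by shared words alone and is not limited to processed pseudogenes. It takes in the protein-coding genes Gm45713, which overlaps Rpl13a in the genome, and BC004004, which shares 38.1% of the words of Rpl21. When the TPM of copies were added to their members, a step chosen after the data had been seen, Rpl5, Rpl27 and Rpl36a lost their calls below. Rpl5 itself held 19.2 TPM and its 3 copies 94.5 TPM, and the distance of the sum from the median member was -0.76 (adjusted p = 0.997). For Rpl27 the member held 71.7 and the copies 113 TPM (distance -0.07, adjusted p = 1.00), and for Rpl36a 62.3 and 33.8 TPM (distance -1.02, adjusted p = 0.455). By expected counts the member held 30.2% of the sum for Rpl5, 56.5% for Rpl27 and 81.9% for Rpl36a. TPM divides by length, so a read on a copy shorter than the member adds more TPM than a read on the member. Sums of counts at the member's length were not tested, so the lost calls hold for TPM summed as quantified. Whether RNA was made from a copy or its reads came from the parent gene cannot be told apart where the sequences are identical. With the copies added, 4 members were called above and 7 below, so the 7 include a call that was not made without the copies. Without the copies 0.461% of all genes tested were called above and 95.9% below.

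Copies with an identical coding sequence were found for 18 members, 11 of the large and 7 of the small subunit. The first 45 coding bases of 4 of them are shown, from the GENCODE M21 transcripts, because these are the members on which the quantifications disagreed. Each stretch is the same in the member and in the copy, at the copy's position on mm10.
Rps12 and Rps12-ps3: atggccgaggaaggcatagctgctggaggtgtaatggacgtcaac
Rpl10 and Rpl10-ps3: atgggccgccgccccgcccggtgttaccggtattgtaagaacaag
Rpl12 and Gm10275: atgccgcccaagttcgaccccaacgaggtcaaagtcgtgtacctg
Rpl5 and Gm15500: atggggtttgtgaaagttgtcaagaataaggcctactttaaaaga
The stretches lie in the single exon of Rps12-ps3 (chr19:59322371-59322415, plus strand), Rpl10-ps3 (chr9:50344897-50344941, minus strand), Gm10275 (chr10:29699246-29699290, minus strand) and Gm15500 (chr7:114706119-114706163, minus strand). Over the whole coding sequence, 396 bases of Rps12, 642 of Rpl10, 495 of Rpl12 and 891 of Rpl5, the number of differences was 0. Rps12-ps3 and Rpl10-ps3 are annotated as protein_coding despite their names, and Gm10275 and Gm15500 as transcribed processed pseudogenes.

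The next comparison asked whether the 2 quantifications give the same level for a member. The second quantification gave lower TPM for most genes, by 1.16, 1.11, 1.69 and 1.67 log2 units at the median of 10323 genes in replicates 1 to 4, so differences were centred on that median. By more than 2-fold, 0 of 81 members were higher in the second quantification (limma treat, adjusted p below 0.05), where 1.84% of all genes were. At an unadjusted p below 0.05 the count was also 0, and when any difference was tested it was 6. Lower were 4 members (4.94%, where 0.911% of all genes were): Rps12, Rpl12, Rpl10 and Rpl5. The median member differed by -0.14, against 0.0 over all genes, and 67 of the 81 members differed by less than 0.25 in either direction.

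Rps12 encodes a small subunit protein of the beak. In the first quantification it was at 419, 326, 360 and 364 TPM in replicates 1 to 4, and in the second at 6.98, 6.27, 3.98 and 5.26 TPM. The centred difference was -4.72, -4.57, -4.78 and -4.41 (mean -4.62 ± 0.07 SE, limma treat adjusted p = 1.47e-04). Rpl12, part of the stalk base, went from 124, 88.2, 89.6 and 80.4 TPM to 2.15, 1.76, 1.34 and 0.908 TPM (centred mean -4.50, adjusted p = 1.47e-04). Rpl10, a late-joining protein that forms part of the tRNA channel, went from 381, 344, 307 and 375 TPM to 28.7, 28.9, 16.3 and 21.7 TPM (centred mean -2.50, adjusted p = 1.47e-04). For Rpl5 the second quantification gave 2.23, 2.82, 1.43 and 1.89 TPM (centred mean -1.74, adjusted p = 0.0233). The values of Rps12, Rpl12 and Rpl10 in the 2 quantifications were far apart in each library. In the second quantification Rps12 and Rpl10 lay at -3.43 and -1.37 log2 units from the median member and were called below it, where the first had put them at 1.02 and 0.96. The call of Rpl5 was lost without replicate 1 (adjusted p = 0.110), without replicate 2 (0.0952) and without replicate 3 (0.096).

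The counts missing from these members stood on their copies. On average over the 4 libraries Rpl10 held 13131 expected counts in the first quantification and 2815 in the second, while its 9 copies held 565 and 11498. Rps12 held 7906 and 377, and its 19 copies 216 and 7956. Rpl12 held 4953 and 199, and its 3 copies 875 and 6258. Rpl5 held 2071 and 472, and its 3 copies 4833 and 6937. The member's share of the sum was therefore 95.9% and 19.6% for Rpl10, 97.4% and 4.53% for Rps12, 84.9% and 3.04% for Rpl12, and 30.2% and 6.4% for Rpl5. The sums themselves were close, for example 13697 and 14313 for Rpl10. With copies added in both quantifications, 0 of 81 members were called in either direction (limma treat, also 0 at an unadjusted p below 0.05), and the differences were -0.09 for Rpl10, 0.10 for Rps12, 0.11 for Rpl5 and 0.68 for Rpl12.

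**Figure D2:**
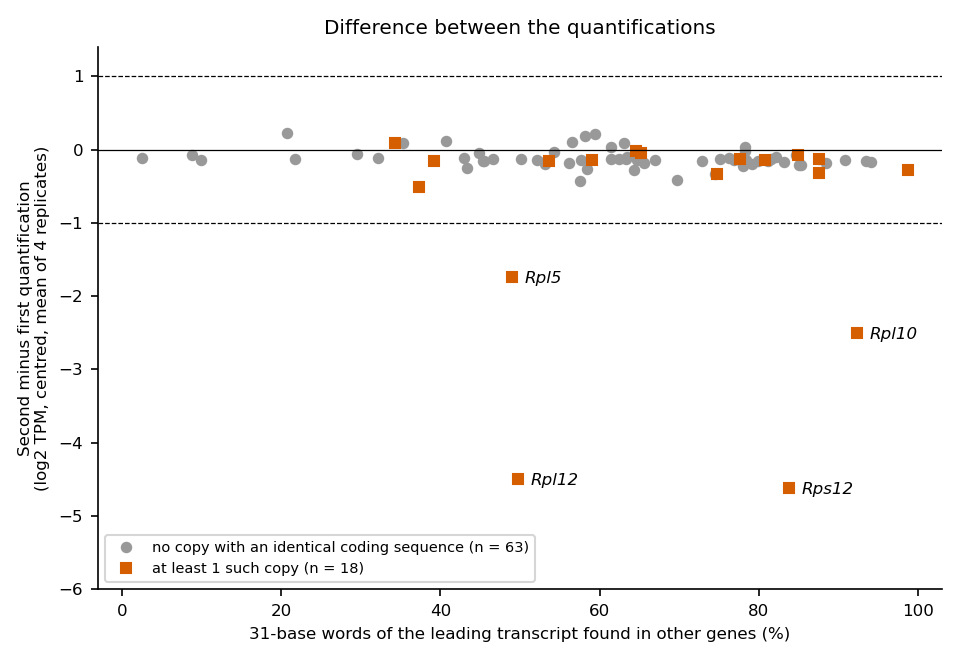
Centred difference between the quantifications (log2, second minus first, mean of 4 replicates) against the percentage of 31-base words of the leading transcript that other genes share, 1 point per member. The 4 members below -1 are among the 18 with a copy of identical coding sequence (squares), and the 63 without one (circles) lie between -0.43 and 0.23.

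Of the 18 members with an identical copy 4 were called lower in the second quantification, and of the 63 others 0, where 0.911% of all genes were. Within 0.25 of 0 lay 10 of the 18 and 57 of the 63, and the 8 others of the 18 were all lower. The median difference was -0.16 with such a copy and -0.14 without. For several of the 18 the counts moved the other way, as for Rpl41. The 4 genes with its identical coding sequence together held 3406 counts in the first quantification and 17.3 in the second. Rpl41 itself went from 12074 to 17096. The member kept over 99% of the summed counts in the second quantification for Rpl13, Rpl15, Rpl38, Rpl41, Rps6, Rps13, Rps27, Rps28 and Rps29. Rpl27a (82.1% and 56.5%) and Rps16 (92.7% and 75.4%) lost counts to a copy without being called. Over all 81 members the share of 31-base words in other genes and the difference had a Spearman rho of -0.27, a description over genes. Over all copies, the share of the summed counts of members and copies was 4.52% ± 0.289 (SD, n = 4) in the first quantification and 9.27% ± 0.0916 in the second, and 64.4% of the copies' counts in the second lay on the copies of Rps12, Rpl10, Rpl12 and Rpl5. The order of the 81 members in the 2 quantifications had a Spearman rho of 0.873 to 0.877 per library, and of 0.981 to 0.988 without those 4.

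**Figure D3:**
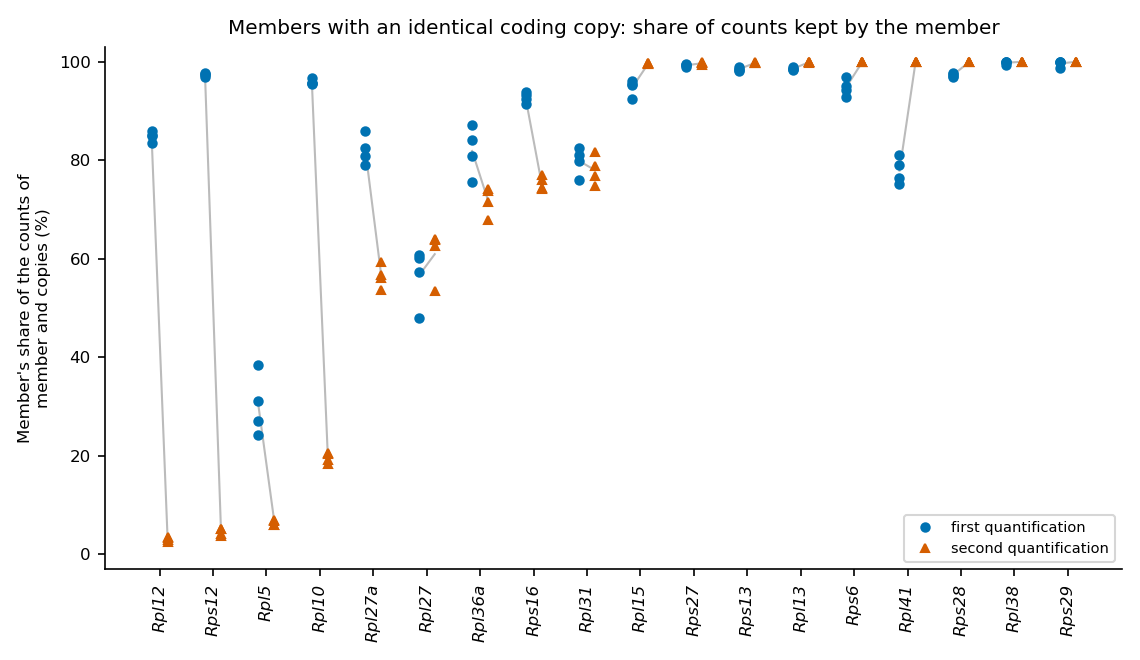
Share of the counts of a member and its copies that was given to the member (%), in the first (circles) and second (triangles) quantification, 1 point per replicate and a line between the means, for the 18 members with a copy of identical coding sequence. Rpl12, Rps12, Rpl5 and Rpl10 fall to below 25%, while Rpl41 rises from 77.9% to 99.9%.

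The transcripts of a member fall into 4 annotated types: 235 of the 501 are protein_coding, 176 retained_intron, 65 processed_transcript (no open reading frame assigned) and 25 nonsense_mediated_decay, transcripts with an early stop codon of the kind that is degraded during translation. Of the members' summed TPM, 93.1% ± 0.463 (SD, n = 4) lay on protein_coding transcripts, 3.61% ± 0.474 on retained_intron, 2.37% ± 0.138 on nonsense_mediated_decay and 0.909% ± 0.141 on processed_transcript. The second quantification gave 92.4%, 3.49%, 2.81% and 1.25% in the same order. The median member of at least 10 TPM had 99.5% of its TPM on coding transcripts, against 98.1% for 4211 protein-coding genes of that level, and 67 of 81 members (82.7%) had over 90%, against 75.7% of those genes. A few members departed from this. The leading transcript was of a noncoding type in 6 members (7.41%, against 4.63% of those genes), and 5 of them are described next.

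Rps20 was the most extreme, with 8.42% of its TPM on coding transcripts. Its transcript Rps20-201, a retained_intron model of 582 bases, was at 163, 143, 139 and 189 TPM and held 91.3% ± 0.323 (SD, n = 4) of the gene, while the coding Rps20-203, 3706 bases long, was at 14.6 TPM. Rps16 was next, with 13.1% on its coding transcript, 71.9% on the retained_intron model Rps16-203 and 14.9% on Rps16-202, another of that type. In Rpsa the nonsense_mediated_decay model Rpsa-206 held 57.6% ± 3.57 and the coding Rpsa-201 41.8% ± 3.56. In Rps23 the processed_transcript Rps23-203 held 50% ± 4.77 and the coding Rps23-201 46.5% ± 3.63, and the ranges over the libraries overlap. Rpl15 had 43.2% ± 1.31 on the retained_intron model Rpl15-206, against 40.2% ± 2.19 on its highest coding transcript, with ranges that also overlap. In Rpl13a and Rpl12 a coding transcript led, but only 46.8% and 60.5% of the TPM lay on coding transcripts.

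Both quantifications gave low coding shares for these genes, but the values for some were far apart. For Rps20 the second gave 91.9% to Rps20-201. The nonsense_mediated_decay model of Rpsa rose from 57.6% to 73.9% there, and that of Rpl12 from 39.0% to 65.4%, while Rpl15-206 had 30.2% in place of 43.2%. In the second quantification 7 members were led by a noncoding type, 5 of them also in the first. Short models that lie inside a longer coding transcript share nearly all of its sequence, and no junction counts were used here, so the types are those of the annotation and not of observed splicing.

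**Figure D4:**
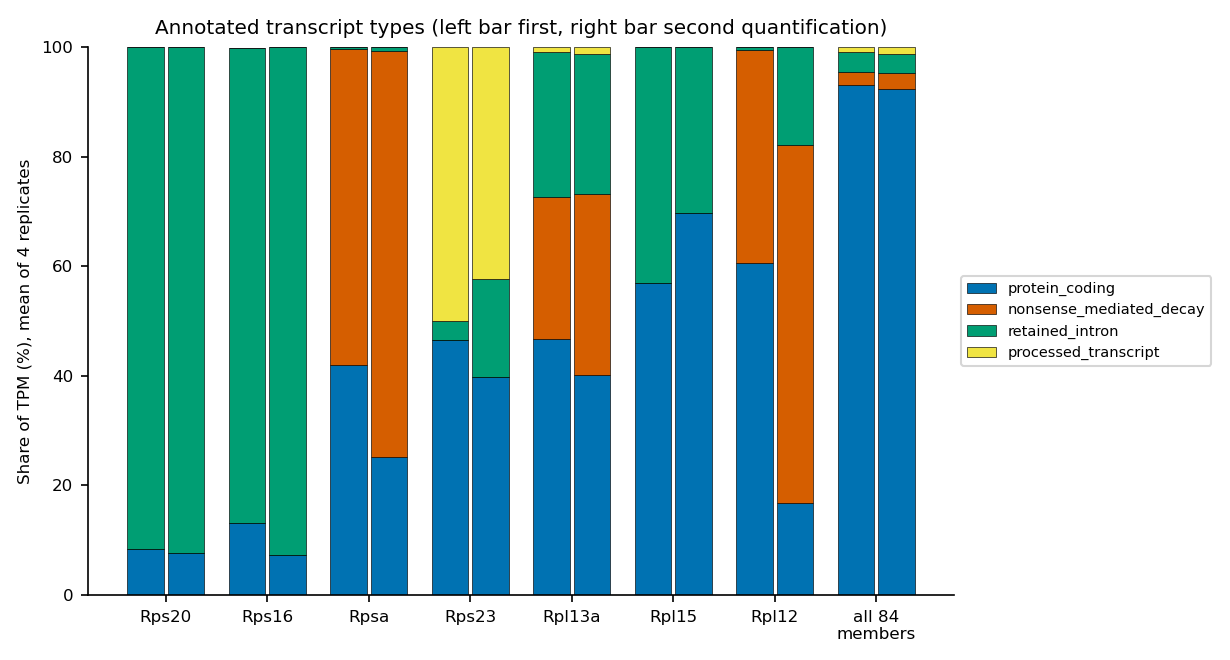
Share of each gene's TPM by annotated transcript type (%), mean of 4 replicates, for 7 members of at least 10 TPM with a low coding share and for all 84 members together, first quantification in the left and second in the right bar. Coding transcripts hold 8.42% of Rps20 and 13.1% of Rps16, against 93.1% over all members.

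Paralogs are related genes with a sequence and a name of their own, 8 of which were set beside the member they resemble. In 5 of the 8 pairs examined the member named first was the higher in each library and the level of the paralog was measurable. Rpl39 exceeded Rpl39l 346-fold (log2 ratio of paralog to parent -8.44 ± 0.49, SD, n = 4), from 94.4 to 154 TPM against 0.24 to 0.51 TPM. Rps4x, the X-linked member, exceeded Rps4l 84.8-fold (log2 -6.41 ± 0.10). Rps4l, at 1.89 ± 0.242 TPM, has no coding transcript here and is not a member. Rpl7 exceeded Rpl7l1 5.77-fold (log2 -2.53 ± 0.14), with Rpl7l1 at 25.9, 17.8, 24.9 and 25.8 TPM. Rps27 exceeded Rps27l, a gene known as a p53 target, 5.43-fold (log2 -2.44 ± 0.18), with Rps27l at 99.8, 67.6, 65.3 and 74.8 TPM. Rpl22 exceeded Rpl22l1 4.07-fold, and this ratio had the largest SD of the 6 measurable pairs (log2 -2.03 ± 0.62), with Rpl22l1 at 22.8, 24.7, 16.4 and 38.4 TPM. In none of these pairs did the 4 and 4 libraries overlap.

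Rpl36al was higher than its parent as quantified. It was at 105, 80.3, 85.1 and 86.3 TPM, above Rpl36a at 73.6, 58.3, 54.6 and 62.8 TPM, and the ranges did not overlap (log2 0.52 ± 0.08). Rpl36a has a pseudogene of identical coding sequence, Rpl36a-ps2, which held 228 expected counts on average in the first quantification and 381 in the second, against 1041 and 973 on Rpl36a. With copies added to both genes, Rpl36a stood at 118, 84.2, 98.9 and 83.4 TPM and Rpl36al at 106, 81.2, 86.2 and 87.5 TPM. The direction then turned (log2 -0.08 ± 0.12), Rpl36al was higher in 1 of 4 libraries, and the ranges overlapped. This sum takes the TPM of each copy at the copy's own length. The copies of Rpl36a held 235 counts and 33.8 TPM on average, and Rpl36a itself 1041 counts and 62.3 TPM. A sum of counts at the length of Rpl36a was not tested, so the turn holds for summed TPM only. The muscle paralog Rpl3l had 3, 0, 3 and 0 expected counts in replicates 1 to 4, at most the 3 counts that a count of 0 allows, against 142 to 152 TPM for Rpl3. The testis paralog Rpl10l had 0 counts throughout. A count of 0 allows up to 3 counts, or 0.0477 to 0.0741 TPM by library (counting error only), against 307 to 381 TPM for Rpl10. No fold is given for these 2. With 4 libraries per pair no test was run.

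The first 60 coding bases of 3 pairs show how far reads can separate paralogs, with capitals at the bases that differ (GENCODE M21; Rpl36a on chromosome X and Rpl36al on 12, Rpl39 on X and Rpl39l on 16, Rps27 on 3 and Rps27l on 9).
Rpl36a: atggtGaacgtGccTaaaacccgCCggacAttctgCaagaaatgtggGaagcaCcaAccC
Rpl36al: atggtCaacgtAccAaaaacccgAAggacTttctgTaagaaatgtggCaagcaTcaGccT
Rpl39: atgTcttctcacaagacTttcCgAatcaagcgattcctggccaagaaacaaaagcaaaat
Rpl39l: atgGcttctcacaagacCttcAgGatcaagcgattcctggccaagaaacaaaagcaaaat
Rps27: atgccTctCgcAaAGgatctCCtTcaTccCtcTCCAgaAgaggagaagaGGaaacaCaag
Rps27l: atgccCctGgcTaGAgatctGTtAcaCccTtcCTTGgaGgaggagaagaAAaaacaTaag
The stretches hold 11, 4 and 18 differences, of 39, 23 and 60 over the coding sequence. Identity over the aligned coding bases was 87.7% for Rpl36a and Rpl36al, 85% for Rpl39 and Rpl39l, 84.7% for Rpl10 and Rpl10l, 76.2% for Rps27 and Rps27l, 74.0% for Rpl3 and Rpl3l, 70.8% for Rpl22 and Rpl22l1, and 59.2% for Rpl7 and Rpl7l1. None of these paralogs is identical to its parent, unlike the copies above.

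**Figure D5:**
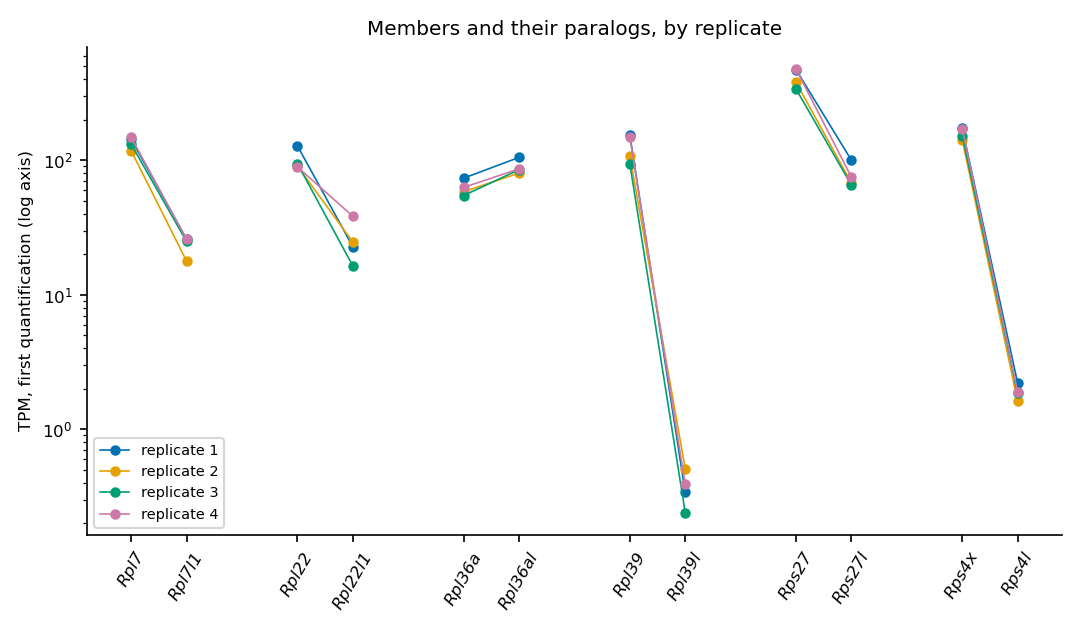
TPM (log axis) of 6 members and their paralogs, with lines joining the 2 genes in each replicate. The paralog is lower in each replicate in 5 pairs and higher in the pair Rpl36a and Rpl36al. In that pair the direction turns (log2 -0.08) once the TPM of copies, each at its own length, are added. Rpl3l and Rpl10l, at or under 3 counts, are not drawn.

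The spread between the 4 libraries was small for most members. The highest library exceeded the lowest by 1.30-fold in the median of the 81 members of at least 10 TPM, by less than 1.5-fold in 71 and by more than 2-fold in 1, Rpl22l1 (2.34-fold). The biological coefficient of variation (the replicate spread of edgeR beyond counting noise, without shrinkage) had a median of 0.105 over members, 0.146 over all genes and 0.112 over protein-coding genes of at least 10 TPM. Rplp2 had the smallest value, 0.0181, followed by Rps24 (0.0389), Rps3 (0.0435), Rps9 (0.0457) and Rpl19 (0.0468). Rpl22l1 had the largest, 0.304, followed by Rpl27 (0.208), Rpl39 (0.201), Rpl31 (0.189) and Rps27l (0.188). Rpl31 was at 131, 97.5, 72.3 and 116 TPM and Rpl39 at 154, 108, 94.4 and 149 TPM. All 5 members of the largest spread were lowest in replicate 3. Without replicate 1 or replicate 3 the members' median fell to 0.0826 and 0.0809.

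Transcript length goes with the level. Over the 81 members, length and log2 TPM had a Pearson r of -0.53 and length and TPM a Spearman rho of -0.43. This is a description over genes that share libraries, and TPM divides by an effective length that shrinks fast for short transcripts. The labels give a fragment size range of 250 to 400 bases, and 6 of the 81 members (7.41%) were shorter than 400 bases on average, against 0.427% of protein-coding genes of at least 10 TPM. Of the 6, Rps29 was among the 4 called above the median member, and none was among those below.

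Genes around the family were examined from lists. Of all genes tested 58.2% lay above 1 TPM and 95.9% more than 2-fold below the median member, so counts below it near that share say nothing particular to a list. Among the ribosomal proteins that carry other names were Fau, fused to a ubiquitin-like protein and the source of eS30, at 428, 405, 417 and 467 TPM (called above the median member, limma treat adjusted p = 0.0301), and the scaffold Rack1 at 109, 82.4, 84.6 and 100 TPM. Of 14 genes for elongation factors and other known TOP mRNAs, 3 were called above the median member (where 0.461% of all genes were) and 9 below. Their highest were Eef1a1 at 938 ± 73.2 TPM (SD, n = 4) and Tpt1 at 636 ± 99.0 TPM. All 78 mitochondrial ribosomal protein genes lay above 1 TPM, and all 78 were called more than 2-fold below the median cytosolic member, with a median of 12.9 ± 1.57 TPM. The highest of them were Mrps21 (76.3 TPM) and Mrpl52 (63.8 TPM).

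All 29 ribosome biogenesis factors measured lay above 1 TPM and more than 2-fold below the median member, with a median of 7.15 ± 1.96 TPM. Npm1 (70.8 TPM) and Ncl (39.6 TPM) led them. The same held for the 12 genes of TOP control by mTORC1, where Eif4e (33.7 TPM) and Larp1 (29.3 TPM) led. Of 6 genes of the 5S particle and of p53 surveillance, 6 lay above 1 TPM and 5 below the median member. Of 15 RNA polymerase I genes, 13 lay above 1 TPM and 15 below the median member. Of 13 chaperones and importers of ribosomal proteins 11 were called below the median member, and Naca (115 TPM) and Btf3 (108 TPM), at the nascent chain exit, were the highest. Across these lists and the cell type markers 0 of 189 genes tested were called between the quantifications, where 0.911% of all genes were lower and 1.84% higher. At an unadjusted p below 0.05 (limma treat) 2 of the 189 were lower and 0 higher. Of the genes named as ribosomal protein pseudogenes, 53 of 300 passed the count filter, and 24 of them lay above 1 TPM. Of 30 such pseudogenes tested between the quantifications 4 were higher and 11 lower in the second, where 1.84% and 0.911% of all genes were.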

How the data were processed

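The members and all gene lists were chosen with earlier results of these data known. The authors deposited, per library, gene and transcript tables of expected counts and TPM (with posterior means) from an alignment to the transcriptome, and a transcript table of estimated counts and TPM made directly from the reads, on mm10 with annotation M21 per the deposited notes. The labels do not name the aligner or quantifier. Transcripts of the second table were summed by gene.

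Log2(TPM + 0.1) of genes with at least 10 summed expected counts was tested with limma 3.58.1 (R 4.3.3) against 1 TPM, and by limma treat for more than 2-fold from the median member. The quantifications were compared by limma treat on 10323 genes of at least 1 mean TPM in either. P-values were adjusted by Benjamini-Hochberg over all genes tested. Spread was estimated with edgeR 4.0.16 on rounded expected counts. Its default shrinkage was run first and its result seen. On simulated data it did not recover large spreads and was switched off. DESeq2 1.42.0 served as an alternative.

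Copies were genes holding at least 25% of the 31-base words of a member's leading transcript. Word length, threshold, pairs shown, the summing of copies and the 60-base start window were chosen after values were seen. Named were the 8 members with the highest and the 8 with the lowest mean TPM, members that failed the count filter, up to 10 called on each side of the median member and 8 in each direction between the quantifications, the 5 with the largest and smallest spread, the 8 with the lowest coding share, the paralog pairs, 7 members by name, and the 2 highest genes of each other list. Rpl11, Rpl27a, Rpl32, Rpl7a and the remaining members with an identical copy were named after their values were seen. Of the genes this rule selects, 1 member and 1 other gene are not reported here. Figures were drawn with matplotlib 3.10.9.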

Additional observations from a re-analysis of the deposited data

Results flagged for a closer look

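In 2 of the 82 members tested (2.44%), 1 library stood apart from the other 3. Chance sets such a library apart in about 1 of 20 groups of this size. Rpl22, a protein of the large subunit that is not essential for translation, was at 128.01 TPM in replicate 1, against 89.1 to 94.41 TPM in the others. Rpl7l1, the paralog of Rpl7, was at 17.79 TPM in replicate 2, against 24.89 to 25.91 TPM in the others. Replicate 1 was the highest library for 50 of 81 members and replicate 2 the lowest for 44, and what part this has in the 2 values was not tested.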

How the results depend on the processing

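No paired analysis was possible because there is 1 group. Of the alternatives for values that answer a comparison, 113 stayed within the spread or within 1.5 times the count, 19 moved and 2 reversed. Members below 1 TPM were 0 with TPM rescaled to protein-coding genes (Rpl39l at 0.21), where 21.2% of all genes were. With no count filter they were 2 (2.41%), where 52.8% of all genes were. When any distance from the median member was tested, 28 members (34.1%) were above and 31 (37.8%) below, where 1.08% and 98% of all genes were. Between the quantifications 61 members (75.3%) were lower and 6 (7.41%) higher for any difference, where 29.6% and 28.8% of all genes were. Without centring 10 (12.3%) were lower, where 4.22% of all genes were. With copies summed 0 were lower, where 0.872% of all genes were, and Rps12 was at 0.10, Rpl5 at 0.11 and Rpl12 at 0.68. In the second quantification Rpl10 and Rps12 were at -1.37 and -3.43 from the median member. The median coefficient of variation of members was 0.0857 with no count filter, 0.139 with shrunken dispersions (added after the data were seen) and 0.0809 to 0.118 when each replicate was left out. The coding share of TPM was 92.4% in the second quantification and 94.2% of expected counts. The log2 ratios to the parent in the second quantification were -2.34 for Rpl7l1, 0.70 for Rpl36al and -2.23 for Rps27l. The TPM of copies, each at its own length, were also summed into both genes, a step added after the data were seen. Rpl36al then turned to -0.08 in the first and -0.17 in the second quantification. Rpl7l1 (-2.34) and Rps27l (-2.23) kept their second-quantification values. Leaving out each replicate gave 8 to 10 members below the median member and 3 to 4 lower in the second quantification. With all libraries 95.9% and 0.911% of all genes were so called. For single genes 1255 alternatives kept direction and call, 43 gained a call, 14 lost it and 6 reversed. Rpl39l, with 8 to 21 counts a library, is the member that depth limits most; the cause of the changes was not tested.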
